A study of Mus musculus with 2 samples.

Results

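Endothelial cells, the cells that line blood and lymphatic vessels, made up 96 of the 8202 cells kept from the ovaries of mice at postnatal day 2. They were chosen by their own transcripts. A cell had to carry unique molecular identifiers (UMIs, each a captured RNA molecule) from at least 3 of the 8 endothelial genes Pecam1, Cdh5, Kdr, Tie1, Egfl7, Cldn5, Emcn and Tek, and these genes had to make up at least 0.1% of its UMIs. Its germ cell genes Ddx4, Dazl and Ooep had to stay under 0.05% of its UMIs together. The cells kept had at least 500 genes and at most 10% mitochondrial UMIs, and they came from 8941 barcodes.

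Whole ovaries of untreated CD1 females were dissociated with collagenase IV and Accumax and captured as 2 libraries of the same group by single-cell RNA-seq of transcript 3′ ends. Each library pooled the ovaries of several pups of a single litter, so the libraries are the replicates (n = 2), and neither pups nor cells can be used as such. Replicate 1 held 4094 barcodes with 54471790 UMIs, and replicate 2 held 4847 barcodes with 59074480 UMIs. After the filters, 3738 and 4464 cells remained. Levels are given as CPM, the UMIs of a gene summed over the endothelial cells of a library and scaled to a common total, and since each UMI marks a transcript end, they were not divided by gene length and are not compared between genes.

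Endothelial cells bind their neighbours through VE-cadherin and claudins, and they respond to vascular endothelial growth factor (VEGF), angiopoietins, apelin, Notch ligands and bone morphogenetic proteins. Arterial, venous, capillary and lymphatic endothelium differ in transcription factors and receptors. In a growing bed, leading tip cells carry Dll4, apelin and Pdgfb, the last of which recruits the pericytes and smooth muscle cells that wrap the vessel. In the ovary, vessels run through the medulla and later surround the growing follicles, whereas the small follicles of the newborn cortex have no capillary net of their own.

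Promoters are shown for 3 members of a list of pan-endothelial genes, Flt1, Eng and Myct1, because they hold the ETS word AGGAAGT or its reverse complement ACTTCCT and because ETS factors were among the transcription factors measured. Each stretch is 300 bases of the RefSeq GRCm38.p6 assembly, from 250 before the start site to 50 after it, written 5′ to 3′ on the strand of the gene with the ETS word in capitals. They lie at chr5:147725962-147726261 on the minus strand for Flt1, at chr2:32646345-32646644 on the plus strand for Eng and at chr10:5593478-5593777 on the plus strand for Myct1.
Flt1: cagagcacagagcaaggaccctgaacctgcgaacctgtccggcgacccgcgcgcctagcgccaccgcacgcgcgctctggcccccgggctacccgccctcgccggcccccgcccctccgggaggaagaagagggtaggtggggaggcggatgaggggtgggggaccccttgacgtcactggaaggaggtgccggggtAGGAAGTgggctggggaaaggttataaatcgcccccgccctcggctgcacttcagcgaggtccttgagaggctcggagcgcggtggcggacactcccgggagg
Eng: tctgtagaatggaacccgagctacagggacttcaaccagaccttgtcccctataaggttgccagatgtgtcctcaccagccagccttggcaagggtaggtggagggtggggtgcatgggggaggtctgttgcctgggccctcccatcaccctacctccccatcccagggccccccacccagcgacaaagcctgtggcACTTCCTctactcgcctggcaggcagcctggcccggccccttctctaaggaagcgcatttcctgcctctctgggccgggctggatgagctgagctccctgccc
Myct1: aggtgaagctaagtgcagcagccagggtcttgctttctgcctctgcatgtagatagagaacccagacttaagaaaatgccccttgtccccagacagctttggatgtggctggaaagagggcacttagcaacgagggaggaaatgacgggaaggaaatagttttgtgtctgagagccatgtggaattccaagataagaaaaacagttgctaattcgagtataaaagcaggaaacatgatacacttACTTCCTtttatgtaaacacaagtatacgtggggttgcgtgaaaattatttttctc
The word began 53 bases before the start site in both Flt1 and Eng and 6 bases before it in Myct1. Of the 35 genes of the list, 22 matched the promoter table, with 25 promoters. The ETS word was in 4 of these promoters (16.0%), those of the 3 genes above and Rasgrp3, against 9.35% of all 32851 promoters of the table. The other words searched on both strands were ACAATGG for SOX factors, in 0 of the 25 against 3.66% of all, CAGCTG for E-box factors, in 8% against 16.3%, and AGATAA for the GATA family, in 8% against 11.2%. A match describes letters in this window and is no evidence of binding.

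The gate gave 63 endothelial cells in replicate 1, 1.69% of its cells (95% exact binomial interval 1.30 to 2.15%), and 33 in replicate 2, 0.739% (0.509 to 1.04%). The intervals cover counting error only and do not overlap. Endothelial cells held a median of 13969 UMIs and 3705 genes in replicate 1 and of 6205 UMIs and 2202 genes in replicate 2, against 8419 and 5938.5 UMIs in the other cells without germ cells. Their mitochondrial share had a median of 2.58% and 2.98%. Summed, they gave 1031806 UMIs in replicate 1 and 393251 in replicate 2, so values of replicate 1 carry less counting error.

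As the values that chose the cells, the gate genes are described, and no test of them is given. The 8 genes made up 0.194 to 0.761% of a cell's UMIs in replicate 1 (median 0.456%) and 0.314 to 1.20% in replicate 2 (median 0.462%). All 8 were detected in 36 and 7 cells. The lowest number was 5 genes in replicate 1 and 3 in replicate 2. Just outside the threshold, 7 and 11 cells had at least 3 of the genes at less than 0.1% of their UMIs, with a highest share of 0.0389% and 0.0903%. A further cell of replicate 1 met the gate but exceeded the germ cell limit. Cdh5, which encodes VE-cadherin (chromosome 8), stood at 643 and 567 CPM, and Cldn5, a tight junction claudin (chromosome 16, 18776847 to 18778262 in GRCm38), at 1324 and 1836 CPM. Kdr, the main VEGF receptor, stood at 387 and 361 CPM, and Tek, the angiopoietin receptor, at 134 and 71.2 CPM.

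Markers of other cell types were present in the endothelial sums, most of them below their level in the other cells. Granulosa markers summed to 313 and 254 CPM (8 genes, none at 0, led by Wt1 with 223 UMIs), against 1848 and 1349 CPM in all other cells without germ cells. Interstitial markers summed to 186 and 465 CPM (9 genes, none at 0, led by Col1a2 with 107 UMIs) against 4596 and 7745 CPM. At least 3 of the granulosa markers were found in 20 and 4 endothelial cells, and at least 5 of the interstitial markers in 3 and 4. Mesothelial markers summed to 5.82 and 7.63 CPM, with Upk3b, Krt7, Msln, Lgr5 and Upk1b at 0 and Krt19 highest with 5 UMIs. Immune markers summed to 3.88 and 45.8 CPM against 75.9 and 129 CPM in the other cells without germ cells, with Ptprc, Csf1r and Aif1 at 0 and Fcer1g highest with 12 UMIs. The germ cell markers outside the gate summed to 44.6 and 53.4 CPM against 11970 and 10350 CPM in germ cells. Their most abundant gene was Dppa3 with 31 UMIs, and Taf7l was at 0. Erythroid markers were higher in endothelial cells than in the other cells without germ cells in replicate 1 (512 against 278 CPM) and lower in replicate 2 (33.1 against 1155 CPM), led by Hba-a1 with 276 UMIs and with Slc4a1 at 0. Platelet markers went the same way, with 34.9 against 27.3 CPM in replicate 1 and 7.63 against 35.6 CPM in replicate 2, led by Pf4 with 36 UMIs, with Ppbp, Gp9, Gp1bb and Treml1 at 0. The part of free RNA or joined cells in these levels was not tested.

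A second gate with the same limits on Rgs5, Notch3, Kcnj8, Abcc9, Cspg4, Pdgfrb, Higd1b and Ndufa4l2 marked perivascular cells, the pericytes and smooth muscle cells around vessels. It held 54 and 58 cells that were not endothelial by the first gate. A single endothelial cell of replicate 1 and 7 of replicate 2 passed both gates. These 7 cells held 32.5% of the endothelial UMIs of replicate 2, the cell of replicate 1 2.87%. Perivascular gate genes therefore summed to 79.5 CPM in the endothelial cells of replicate 1 and 587 CPM in those of replicate 2, and to 38.9 and 3.77 CPM without cells in both gates, against 6592 and 4863 CPM in perivascular cells. Rgs5 was the most abundant with 106 UMIs, and none of the 8 genes was at 0. The libraries shared 21 barcodes, none of them endothelial, and 4 and 2 endothelial cells had a Scrublet doublet score over 0.19.

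**Figure D1:**
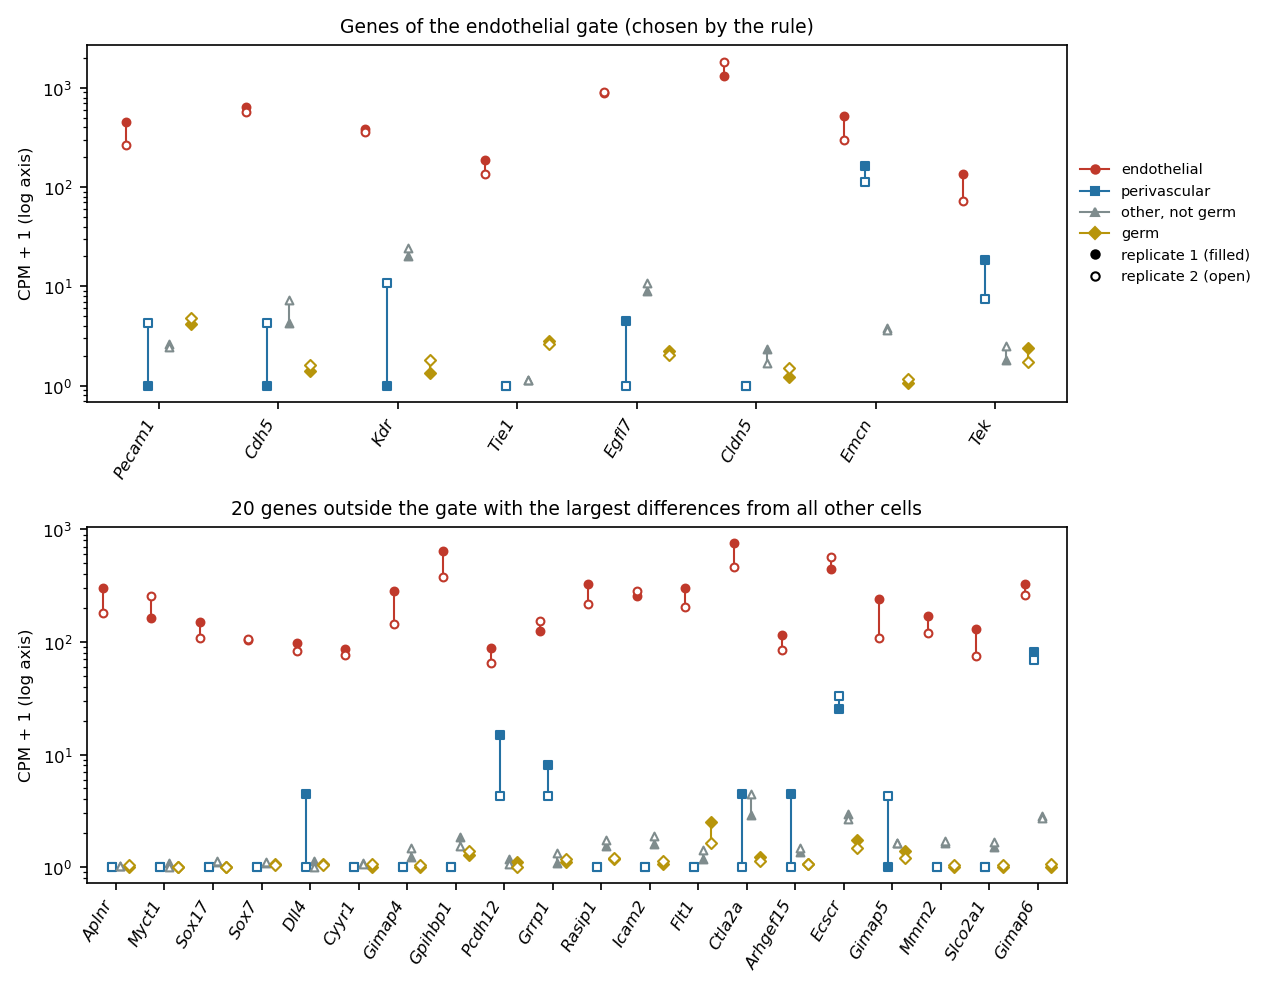
Levels in CPM plus 1 (log axis) of the gate genes and the leading other genes in endothelial, perivascular, other non-germ and germ cells, with a filled point for replicate 1 and an open point for replicate 2. The endothelial points of Cldn5 lie at 1324 and 1836 CPM and those of Aplnr at 301 and 180 CPM, while perivascular cells have no UMI of either.

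The next question was which genes distinguished endothelial cells from all other cells of the same libraries. Of 15514 genes tested by edgeR on the summed UMIs, 1499 were higher (9.66%) and 2346 lower (15.1%), at an adjusted p under 0.05 and a log2 fold change over 1 in size. These counts run over every gene in the fit. They include the 8 gate genes among the higher and the 3 germ cell genes of the gate among the lower, and no result is read from those. Germ cells gave 33.2% and 49.2% of the UMIs of the other cells, so each comparison was also made without them. Of 13875 genes, 1052 were then higher (7.58%) and 1253 lower (9.03%). The median log2 fold change over all genes was -0.36 against all other cells and -0.17 without germ cells, and the fold changes of genes should be read against it.

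Among genes outside the gate, Aplnr (chromosome 2, 85136225 to 85139923), the apelin receptor, had the largest pooled fold change of those at 50 CPM or more. It had 301 CPM in endothelial cells of replicate 1 and 180 CPM in those of replicate 2, and 3 UMIs in all other cells of both libraries together. The ratio was 9860, with a 95% counting interval of 3348 to 48020 (adjusted p = 2.46e-07). Myct1, a membrane protein gene of endothelial and blood-forming cells, had 161 and 257 CPM against 3 UMIs elsewhere, a ratio of 6891 (2333 to 33630). The 2 intervals overlap, and in replicate 2 alone Myct1 had the larger fold change.

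The transcription factor genes Sox17 and Sox7 came next. Sox17 (chromosome 1, 4490931 to 4497354) had 148 and 107 CPM against 0.0762 and 0.0692 CPM, a log2 fold change of 10.92 (standard error 0.38), and Sox7 had 103 and 104 CPM, a log2 fold change of 10.57 (0.34). Dll4 (chromosome 2, 119325784 to 119335962), the Notch ligand of arteries and tip cells, had 96.9 and 81.4 CPM against 0.114 and 0.0173 CPM, 10.56 (0.49). Gpihbp1 (chromosome 15, 75596628 to 75599481), which carries lipoprotein lipase to the capillary lumen, had 642 and 379 CPM against 0.667 and 0.467 CPM, 10.02 (0.40). In each of these genes both endothelial values lay far above both values of the other cells.

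The remaining 14 of the 20 leading genes had log2 fold changes between 8.29 and 10.42. The GTPase genes Gimap4, Gimap5 and Gimap6, known mainly from lymphocytes, had 284 and 145, 239 and 107, and 325 and 259 CPM. Adhesion and junction genes were Pcdh12 (88.2 and 63.6 CPM), Icam2 (253 and 282 CPM), Ecscr (442 and 570 CPM) and Mmrn2 (168 and 120 CPM). Regulators of small GTPases were Rasip1 (325 and 216 CPM), required for vessel lumens, and Arhgef15 (115 and 83.9 CPM). The others were the VEGF receptor gene Flt1 (300 and 203 CPM), Cyyr1, Grrp1, Ctla2a and the prostaglandin transporter gene Slco2a1.

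To compare detection across depths, every cell was thinned to 2000 UMIs. No endothelial cell was shallower, and 29 and 123 of the other cells without germ cells were left out. Gpihbp1 was then detected in 65.1% (95% exact interval 52.0 to 76.7%) and 63.6% (45.1 to 79.6%) of endothelial cells, against 0.0883% and 0.0572% of other cells without germ cells and 0% of perivascular cells. Cd34, a sialomucin of vessels and stroma, was in 81.0% and 81.8% of endothelial cells and in 13.3% and 18.6% of the others. Aplnr was in 50.8% and 24.2% of endothelial cells, with intervals of 37.9 to 63.6% and 11.1 to 42.3%. Without thinning, Aplnr was in 88.9% and 66.7% and Gpihbp1 in 92.1% and 81.8%.

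Most genes used throughout the endothelium were higher. Of 35 pan-endothelial surface and signalling genes, all 35 could be tested, and 31 were higher than in all other cells and none lower, with a median log2 fold change of 6.25. Without germ cells in the reference 30 were higher, and the median was 5.50. The shares of all genes were 9.66% higher and 15.1% lower, and 7.58% and 9.03% without germ cells. Ramp2, which pairs with the adrenomedullin receptor Calcrl, had 563 and 473 CPM (log2 fold change 2.60, standard error 0.19), and Calcrl had 92.1 and 63.6 CPM (3.83, standard error 0.30). Cd93 had 601 and 346 CPM, Clec14a 287 and 234 CPM and Esam, an adhesion molecule of junctions, 612 and 430 CPM. S1pr1, the receptor for sphingosine 1-phosphate, had 57.2 and 50.9 CPM (2.94). Ramp3, Cgnl1, Jam2 and Tspan7 did not pass. Podxl was higher than in all other cells (1.68) but missed the threshold without germ cells (0.86).

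Of 27 endothelial transcription factor genes, 26 were tested, and 19 were higher and none lower than in all other cells. Without germ cells 20 were higher, and Hey1 was lower. Of all genes, 9.66% were higher and 15.1% lower than in all other cells, and 7.58% and 9.03% without germ cells. The ETS factor genes Fli1 (182 and 127 CPM, log2 fold change 6.51), Ets1 (216 and 198 CPM, 3.18), Ets2 (223 and 216 CPM, 4.47) and Elk3 (317 and 305 CPM, 4.99) were higher. Erg, another ETS factor known from endothelium, had 5.82 and 2.54 CPM and was not tested. Lmo2, Tal1 and Lyl1, partners in a complex shared with blood stem cells, were all higher. Lmo2 had 234 and 343 CPM (log2 fold change 7.39) and Lyl1 a log2 fold change of 5.39, while Tal1 had 3 UMIs in all other cells, a ratio of 852 (95% counting interval 267 to 4341). Sox18 (123 and 73.7 CPM, 7.64), Mecom (42.6 and 35.6 CPM, 8.0), Hhex, Bcl6b, Mef2c, Epas1, Foxo1, Foxc1, Gata2 and Tcf4 were also higher. The flow-responsive genes Klf2 (663 and 544 CPM, log2 fold change 0.74) and Klf4 (127 and 78.8 CPM, -0.05) did not pass, and Klf2 had 837 and 440 CPM in the other cells without germ cells.

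**Figure D2:**
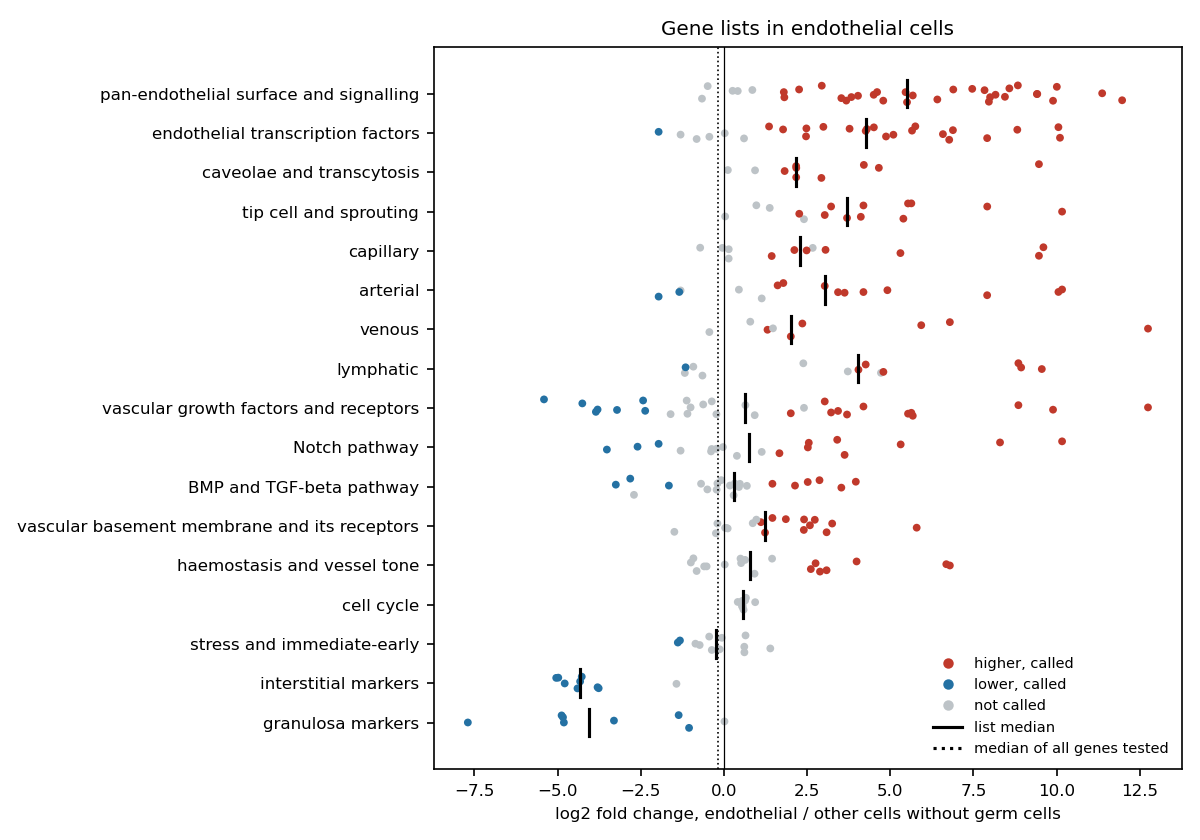
Each point is a gene, placed by its log2 fold change in endothelial cells against other cells without germ cells, in rows by gene list, with the list median as a bar, genes at 0 in a group at their bound and the median of all genes (-0.17) as a dotted line. The pan-endothelial, caveolar and tip cell lists lie mostly to the right, with medians of 5.50, 2.17 and 3.70, and the interstitial markers to the left, with a median of -4.32.

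Vessel types were examined next, first by level. Of all genes, 9.66% were higher and 15.1% lower than in all other cells, and 7.58% and 9.03% without germ cells. Of 17 arterial genes, 15 were tested, and 9 were higher and none lower than in all other cells. Besides Dll4, Sox17 and Mecom these were Efnb2, the ephrin of arteries (52.3 and 66.1 CPM, log2 fold change 2.11), Unc5b (46.5 and 130 CPM, 4.79), Nrp1 (193 and 130 CPM, 4.18), Igfbp3 (184 and 247 CPM, 2.65), Notch4 (32.0 and 22.9 CPM, 4.34) and Cxcr4 (9.69 and 28.0 CPM, 3.41). Gja4, the gap junction gene connexin 37, had 78.5 and 130 CPM, against 223 and 200 CPM in germ cells, and passed only with germ cells left out (0.35 with them, 4.91 without). Some genes of mature arteries were low. Gja5 (connexin 40) had 2.91 and 0 CPM and Bmx 0.969 and 0 CPM, too few to test, while Hey1 had 10.7 and 12.7 CPM against 67.2 and 28.2 CPM in the other cells without germ cells (-1.96, adjusted p = 0.0459). Fbln5, an elastic fibre gene, was lower as well (-1.34).

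Venous genes were tested for 10 of 13 members, and 7 were higher and none lower, next to 9.66% and 15.1% of all genes. Ephb4, the receptor of Efnb2, had 77.5 and 63.6 CPM (log2 fold change 2.10, standard error 0.25), Nrp2 105 and 221 CPM (2.68, 0.29, with 75.5 CPM in replicate 2 without the 3 cells with Prox1 and Lyve1 described below), Icam1 338 and 180 CPM (3.18, 0.32) and Vwf, the von Willebrand factor, 25.2 and 20.3 CPM (4.93, 0.49). Aplnr is described above, and Lrg1 and Vcam1 passed at under 13 CPM. Vcam1 did not pass without germ cells, and Lrg1 was too low to test with the cells in both gates left out. Nr2f2, which maintains venous identity, had 85.3 and 196 CPM and did not pass (0.46 against all other cells and -0.44 without germ cells, where it stood at 115 and 264 CPM). Of the genes of inflamed or collecting veins, Selp had 2 UMIs and did not pass (adjusted p = 0.0601), and Sele and Ackr1 had no UMI in replicate 2 and were not tested.

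Among 15 capillary genes, 12 were tested and 7 were higher (9.66% of all genes), also with germ cells left out (7.58% of all genes). They were Gpihbp1, Plvap, which forms the diaphragms of fenestrae (142 and 58.5 CPM, log2 fold change 6.56), Rgcc (618 and 270 CPM, 2.84), the water channel gene Aqp1 (34.9 and 135 CPM, 6.07), the glucose transporter gene Slc2a1 (39.7 and 53.4 CPM, 2.23), Sgk1 (233 and 198 CPM, 3.73) and Sparcl1 (471 and 618 CPM, 2.29). Of the fatty acid uptake and binding genes, Cd36 had 7.75 and 0 CPM and Fabp4 0 and 7.63 CPM, while Fabp5 had 37.8 and 81.4 CPM and did not pass. Car4 had 0.969 and 0 CPM.

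Tip cell and sprouting genes were higher in 14 of 15 tested members (9.66% of all genes), or in 11 without germ cells (7.58% of all genes). Apln, the ligand of Aplnr, had 64.0 and 68.7 CPM (log2 fold change 6.43, standard error 0.30). Pdgfb had 73.7 and 40.7 CPM (3.01), Plxnd1, a semaphorin receptor gene, 368 and 188 CPM (6.08), Trp53i11 505 and 361 CPM (4.84) and Adm, which encodes adrenomedullin, 44.6 and 48.3 CPM (3.05). Esm1, a marker of leading cells in other beds, had 14.5 and 2.54 CPM, and Angpt2 5.82 and 25.4 CPM. Apln was found in 29 cells of replicate 1 and 15 of replicate 2, and 43 of these 44 cells also carried Aplnr. Aplnr was in 78 of all 96 endothelial cells, and the cells with Apln were deeper, with a median of 14980 UMIs against 11890 in all 96.

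Within single cells arterial and venous genes were often found together. At least 2 of the arterial genes Gja5, Gja4, Hey1, Hey2, Sox17, Dll4 and Bmx were found in 39 and 17 cells, and at least 2 of the venous genes Nr2f2, Ephb4, Aplnr, Nrp2, Vwf and Selp in 52 and 22 cells. Both held in 33 and 14 cells, which is 47 of the 96. Most of the cells that passed both the endothelial and the perivascular gate are among them. Gja4 and Nr2f2, counted here, were higher in perivascular cells, as given below. Arterial genes alone reached 2 in 6 and 3 cells and venous genes alone in 19 and 8. The 5 and 8 cells with neither were shallow, with medians of 6208 and 2542 UMIs. These are ranges of detection and move with depth, and they are not cell types. A single cell of replicate 1 stood at the arterial end. It carried 6 of the 7 arterial genes with 78 UMIs, of them 37 of Sox17, 34 of Gja4 and all 3 UMIs of Gja5 in either library. It had no UMI of Nr2f2, Aplnr or Apln, and of the venous genes only Ephb4, with 2 UMIs.

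**Figure D3:**
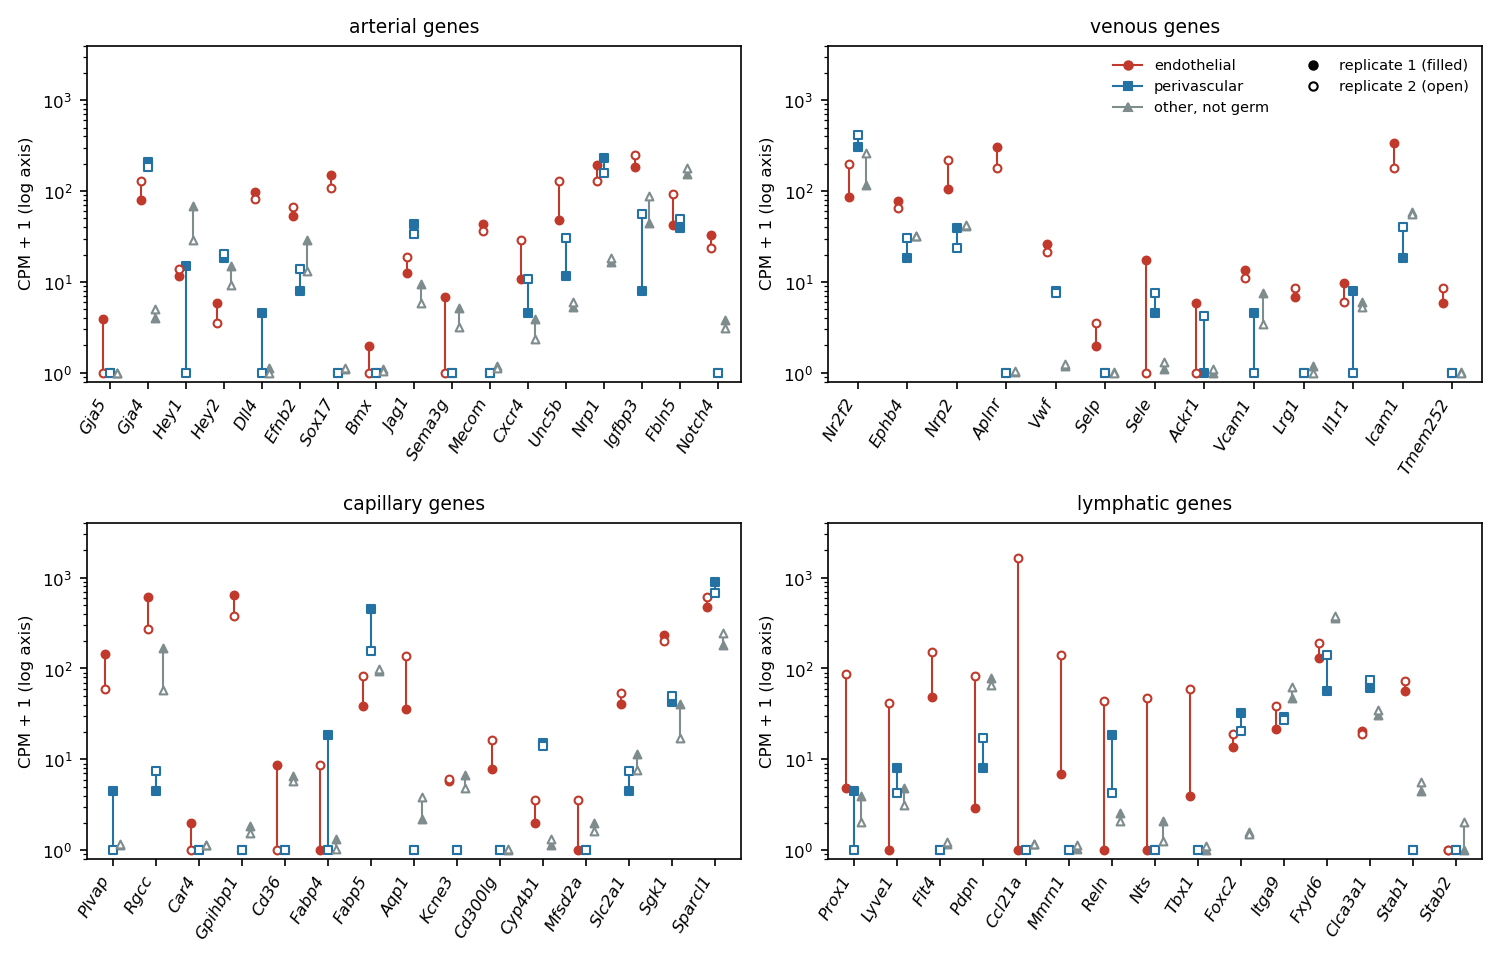
Levels in CPM plus 1 (log axis) of arterial, venous, capillary and lymphatic genes in endothelial, perivascular and other non-germ cells, filled for replicate 1 and open for replicate 2. Ccl21a, Lyve1, Reln and Nts have endothelial values above 0 in replicate 2 only, while Sox17, Dll4, Aplnr and Gpihbp1 lie between 81.4 and 642 CPM in both libraries.

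Lymphatic genes differed between the libraries. Of 15, 13 were tested, and Flt4, Mmrn1, Nts, Tbx1, Foxc2 and Stab1 were higher than in all other cells. None was lower, next to 9.66% higher and 15.1% lower of all genes. The call of Nts (log2 fold change 5.45) was lost by DESeq2 (5.85, adjusted p = 0.109). In edgeR it was lost with Scrublet scores over 0.19 left out (4.30, adjusted p = 0.0655) and without germ cells (4.72, adjusted p = 0.0617). Ccl21a, the chemokine of lymphatic vessels, had 0 UMIs in the endothelial cells of replicate 1 and 1640 CPM in those of replicate 2, and it was not tested. It has near-identical copies in the genome, so reads could be lost or split between them. Mmrn1 had 5.82 and 140 CPM, Prox1, the transcription factor that sets lymphatic identity, 3.88 and 86.5 CPM, and Lyve1, a hyaluronan receptor gene, 0 and 40.7 CPM. Against all other cells neither Prox1 nor Lyve1 passed. Without germ cells Prox1 did (log2 fold change 4.26, adjusted p = 0.0338), while Nts did not and Fxyd6 was lower. That gave 6 higher and 1 lower, next to 7.58% and 9.03% of all genes. With the library as a block, or with the cells in both gates left out, Prox1 and Lyve1 were both higher. In these fits 8 members were higher than all other cells, and the block also gave Pdpn as lower.

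These UMIs lay in 3 cells of replicate 2, which carried Prox1 and Lyve1 together and were picked out after their values were seen. They held 11720, 47126 and 56088 UMIs, 29.2% of the endothelial UMIs of replicate 2, and none of them passed the perivascular gate. Each carried all 6 of Prox1, Lyve1, Flt4, Mmrn1, Ccl21a and Reln, and these 6 genes summed to 101, 326 and 390 UMIs. No other endothelial cell exceeded 4 UMIs or 3 of the 6 genes. Ccl21a gave 67, 268 and 310 UMIs, Mmrn1 15, 22 and 18, Prox1 9, 9 and 13, and Flt4, the receptor for VEGF-C, 4, 19 and 30. All 3 cells lacked Aplnr, Apln and Sox17. Together the 3 cells held all 11 endothelial UMIs of the immune marker Fcer1g in replicate 2 and all 5 of Laptm5, but not the 1 of Tyrobp. Their Scrublet scores were 0.212, 0.212 and 0.151, so the first 2 lay over the doublet threshold of 0.19.

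Without the 3 cells, Ccl21a, Lyve1, Mmrn1, Reln, Nts and Tbx1 had no UMI left in replicate 2, and Prox1 had 3. Flt4 remained, with 47.5 CPM in replicate 1 and 25.2 CPM in replicate 2. In a fit without them, 10 members of the list were tested, and Flt4, Foxc2 and Stab1 were higher, while Pdpn, Reln and Itga9 were lower. Foxc2 had 12.6 and 17.8 CPM with all cells (log2 fold change 5.63), and Stab1, a scavenger receptor gene, 56.2 and 71.2 CPM (4.90), of which 21.6 CPM remained in replicate 2 without the 3 cells. Other genes were also lower in replicate 2 with the 3 cells left out. Nrp2 went from 221 to 75.5 CPM, Aqp1 from 135 to 21.6 CPM, Plvap from 58.5 to 35.9 CPM, Angpt2 from 25.4 to 7.19 CPM and Top2a from 203 to 101 CPM. Nrp2, Aqp1, Plvap and Angpt2 were still higher than in all other cells, while Top2a no longer passed. Stab2 had no UMI in endothelial cells.

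**Figure D4:**
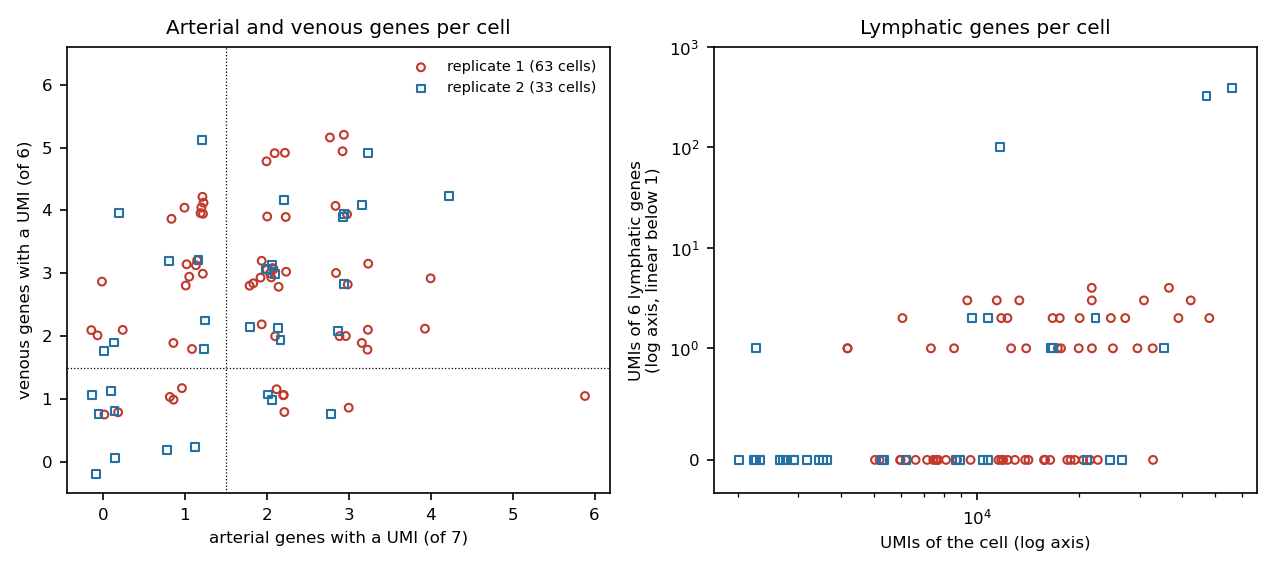
Each point is an endothelial cell, with the number of venous genes of 6 against the number of arterial genes of 7 (jittered) and with the UMIs of 6 lymphatic genes against the UMIs of the cell (log axes), by replicate. Arterial and venous counts overlap in 47 of the 96 cells, and 3 cells of replicate 2 stand apart with 101, 326 and 390 lymphatic UMIs.

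Of 30 growth factor and receptor genes, 29 were tested, 14 higher and 7 lower, and 12 and 7 without germ cells, next to 9.66% and 15.1% of all genes and 7.58% and 9.03% without germ cells. The VEGF receptors and co-receptors Flt1, Flt4, Nrp1 and Nrp2, the guidance receptors Robo4 (105 and 86.5 CPM, log2 fold change 6.4), Unc5b and Plxnd1 and the receptor Aplnr were higher. Vegfa was lower, with 0.969 and 2.54 CPM against 15.3 and 13.2 CPM in the other cells without germ cells. Its 2 endothelial UMIs put it 10.25-fold below them, with a 95% counting interval of 2.83 to 84.8 (adjusted p = 0.0111). Against all other cells Vegfa was called as well, but not with the cells in both gates, or those with markers of other types, left out. Fgf2 had 0 and 2.54 CPM against 21.8 and 44.1 CPM. Its single endothelial UMI was 45.6-fold less (8.17 to 1801, adjusted p = 0.00871). Angptl2, Angptl4, Pdgfa, Pdgfra and Sema3c were lower as well. Pdgfb and Apln were the ligands that were higher with either reference together with Angpt2, while Vegfc and Pgf were higher only with germ cells in the reference. Pdgfrb, the receptor for Pdgfb and a perivascular gate gene, had 12.6 and 63.6 CPM, and 11.0 and 0 CPM without cells in both gates.

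Of 18 Notch pathway genes tested, 7 were higher and 2 lower, and 8 and 3 without germ cells. Of all genes, 9.66% were higher and 15.1% lower against all other cells, and 7.58% and 9.03% without germ cells. With the library as a block, or with the cells in both gates left out, 3 were lower against all other cells. Notch1 (91.1 and 91.5 CPM, log2 fold change 4.11) and Notch4 (4.34) were higher, and Notch2 was lower (5.82 and 25.4 CPM, -1.86). Jag2, with 39.7 and 50.9 CPM, did not pass against all cells, as germ cells carried 89.5 and 73.6 CPM, and was higher without them (5.31, standard error 0.42). The glycosyltransferase genes Mfng (257 and 188 CPM, 7.45) and Lfng (3.35), which modify Notch receptors, were higher, and Rfng did not pass (-0.06). Of the targets, Nrarp was higher (104 and 94.1 CPM, 3.05), Hes1 did not pass (423 and 361 CPM, 0.30) and Heyl was lower (-2.79).

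In the BMP and TGF-beta pathway, 8 of 21 tested genes were higher and 3 lower, and 6 and 3 without germ cells. The shares of all genes were 9.66% higher and 15.1% lower against all other cells and 7.58% and 9.03% without germ cells. The receptors of the endothelial branch, Eng (468 and 300 CPM, log2 fold change 4.41, standard error 0.30) and Acvrl1 (65.9 and 48.3 CPM, 3.68, 0.29), were higher, as were Tgfbr2 (64.9 and 114 CPM, 3.36), Smad1 (88.2 and 160 CPM, 2.59), the target Id3 (567 and 483 CPM, 2.02) and the ligand Tgfb1 (284 and 264 CPM, 4.80). Bmpr1a (6.78 and 5.09 CPM, -2.32) and Id2 (-1.05) were lower, Id2 not without the 3 cells with Prox1 and Lyve1 (-0.92). Bmp6 had no UMI in endothelial cells, against 12.5 and 15.0 CPM in all other cells. Bmpr2, Smad6 and Id1 did not pass.

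The basement membrane list had 13 of 20 tested members higher and none lower, and 11 of 19 without germ cells. All genes gave 9.66% higher and 15.1% lower, and 7.58% and 9.03% without germ cells. Collagen IV was carried by Col4a1 (1232 and 793 CPM, log2 fold change 3.30) and Col4a2 (984 and 715 CPM, 3.48). Hspg2, which encodes perlecan, had 446 and 315 CPM (3.20), the laminin gene Lama4 171 and 150 CPM (3.70) and Sparc, a collagen-binding matrix gene, 6254 and 5124 CPM (2.29). The integrin genes Itga2, Itga5 and Itgb1 passed, and Itga1 did so with 28.1 and 81.4 CPM, of which 22.9 and 11.3 CPM remained without cells in both gates. Lama5, Lamb1, Lamb2, Nid1 and Itga6 did not pass.

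Of the genes of caveolae and transcytosis, 8 of 10 were higher with either reference. All genes gave 9.66% higher, and 7.58% without germ cells. Cav1 had 300 and 308 CPM (log2 fold change 3.03, standard error 0.19), Cavin2 257 and 211 CPM (4.99, 0.23), Cavin3 651 and 613 CPM (3.01, 0.18) and the membrane-shaping gene Ehd4 258 and 188 CPM (3.02, 0.23). Pacsin2 and Dnm2, used in many cell types, did not pass. Haemostasis and vessel tone genes were higher in 10 of 18 tested members (9.66% of all genes), and in 7 without germ cells (7.58% of all genes). Nos3, the endothelial nitric oxide synthase, had 76.6 and 50.9 CPM (4.75), and Procr, the protein C receptor gene, 117 and 94.1 CPM (4.76). Thrombomodulin (Thbd, 19.4 and 20.3 CPM, -0.11) and Plat did not pass.

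Cell cycle genes gave 2 higher (Mki67, 60.1 and 66.1 CPM, log2 fold change 1.14, and Top2a, 136 and 203 CPM, 1.33) and 1 lower (Ube2c) of 10, next to 9.66% and 15.1% of all genes, and none of the 10 passed without germ cells. In the fit without germ cells the median log2 fold change was 0.57, against 0.11 with them. Against all other cells and without the 3 cells with Prox1 and Lyve1 the median was -0.17, Mki67 was higher, Birc5 and Ube2c were lower and Top2a did not pass. In thinned cells, at least 2 of the 10 genes were found in 25 of 63 endothelial cells (39.7%, 95% exact interval 27.6 to 52.8%) and 8 of 33 (24.2%, 11.1 to 42.3%). The shares in other cells without germ cells were 15.3% and 18.7%, and in perivascular cells 11.1% and 25%. The endothelial interval of replicate 2 includes the share of its other cells, and without the 3 cells with Prox1 and Lyve1 its share was 5 of 30 (16.7%, 5.64 to 34.7%), below that of its other cells. Of 12 stress and immediate-early genes, 4 were higher than in all other cells and none lower (Junb, Dusp1, Hspa1a and Hspa1b). All genes gave 9.66% higher and 15.1% lower. With the cells in both gates left out Dusp1 alone of the 12 was higher, and Hspa1a in replicate 2 went from 91.5 to 3.77 CPM. Without germ cells none was higher, and Fos (983 and 893 CPM, -1.39) and Fosb (-1.32) were lower. All genes then gave 7.58% higher and 9.03% lower.

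Genes lower in endothelial cells than in the other cells without germ cells included the granulosa marker Gng13 and keratin genes of the surface epithelium. Gng13 had a single endothelial UMI, 232-fold less than elsewhere (95% counting interval 41.6 to 9158), and Smim1 also a single UMI, 215-fold less (38.6 to 8505). The keratin genes Krt18 and Krt8 had 2 UMIs each, 119.5-fold (33.1 to 987) and 90.8-fold (25.1 to 750) less. Rspo1, a WNT co-activator gene of the developing ovary, had 2 UMIs, 92.6-fold less (25.6 to 765). Lgals7 (4.85 and 5.09 CPM, log2 fold change -6.76), Prss35 (-5.74), the metallothionein gene Mt2 (-5.73) and Igfbp6 (-5.39) were also among the leading lower genes. Of the marker lists of these cell types, 8 of 9 interstitial, 7 of 8 granulosa and 7 of 8 mesothelial markers were lower and none higher. All genes gave 9.03% lower and 7.58% higher. Of the 8 perivascular gate genes, Rgs5, Kcnj8, Higd1b and Ndufa4l2 were higher than in all other cells. None of the 8 was higher with the cells in both gates left out. Those cells were picked by these same genes, so this loss was set by the choice.

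Perivascular cells are the closest neighbours of endothelial cells, and a comparison with them asked what the vessel lining and its wrapping did not share. Cells in both gates were left out. Of 4665 genes tested, 461 were higher in endothelial cells (9.88%) and 449 lower (9.62%), with a median log2 fold change over all genes of 0.00. The 8 genes of each gate are among these counts, and no result is read from them. The leading higher genes had no UMI in 112 perivascular cells, so folds are bounds set at 3 UMIs over the group. Gpihbp1 (650 and 384 CPM) was at least 117.6-fold higher, Slc39a8, a zinc and manganese transporter gene (333 and 267 CPM), at least 63.2-fold, Tspan13 (271 and 452 CPM) at least 61.2-fold, Rasip1 at least 59.5-fold, Aplnr at least 55.6-fold, Flt1 at least 52.8-fold, Icam2 at least 52.6-fold and Ly6c1 (245 and 297 CPM) at least 50.6-fold.

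In the other direction, 6 leading genes had no UMI in these endothelial cells. Postn, a matrix gene (259 and 188 CPM in perivascular cells), was at least 93.9-fold lower, Agtr1a, the angiotensin II receptor gene (207 and 217 CPM), at least 89.7-fold, Afap1l2 at least 77.6-fold, Vtn, which encodes vitronectin (203 and 120 CPM), at least 67.6-fold, Cpxm2 at least 59.8-fold and Pth1r, the parathyroid hormone receptor gene, at least 54.1-fold. Aspn and the Notch target Heyl had a single endothelial UMI each, 583-fold (104 to 23100) and 361-fold (63.9 to 14330) less.

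**Figure D5:**
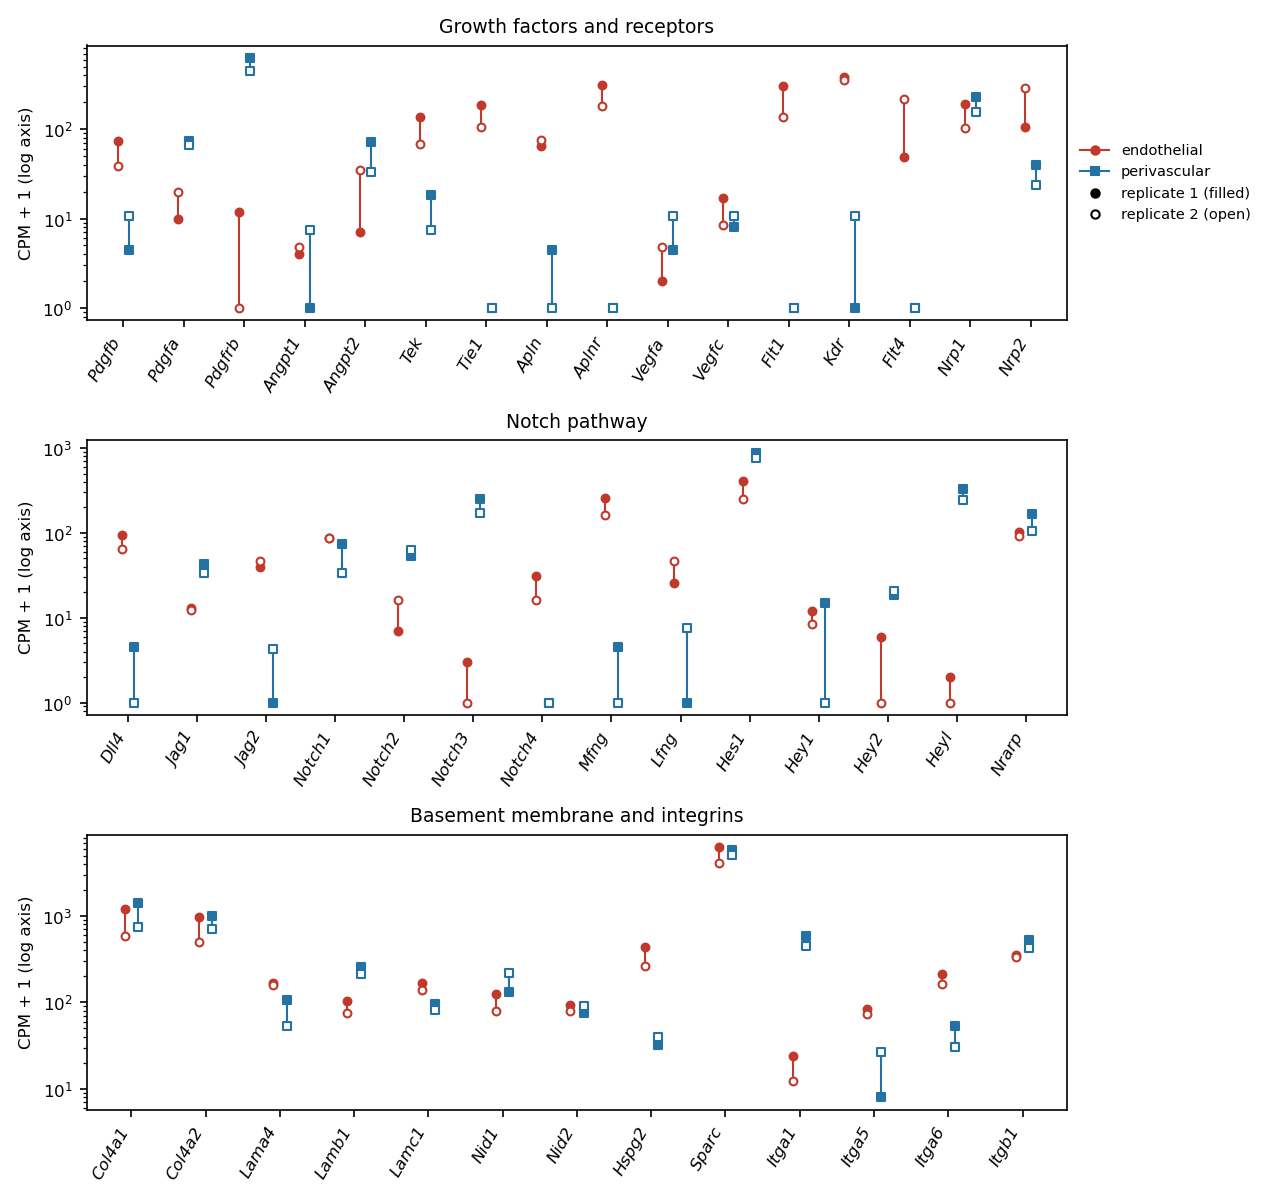
Levels in CPM plus 1 (log axis) in endothelial cells (without cells in both gates) and perivascular cells, filled for replicate 1 and open for replicate 2. The panels show growth factors and receptors, Notch pathway genes, and basement membrane and integrin genes. Aplnr and Flt1 are at 0 in perivascular cells, and Nrp1 and Col4a1 overlap between the groups.

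Of the pan-endothelial list 30 of 31 tested members were higher in endothelial cells than in perivascular cells, next to 9.88% of all genes. Some of the 30 were also found in perivascular cells, such as Esam (140 and 90.8 CPM), Eng (116 and 126 CPM) and Gimap6 (80.5 and 68.1 CPM). Nrp1 (191 and 102 CPM against 228 and 156 CPM, log2 fold change -0.26), Mcam (-0.64), Mef2c (-0.87) and Epas1 (0.11) did not pass. Of the basement membrane list 5 of 15 tested members were higher and 2 lower, next to 9.88% and 9.62% of all genes, with a median log2 fold change of 0.14. Col4a1 had 1194 and 580 CPM against 1393 and 740 CPM and did not pass, whereas Hspg2 was higher (435 and 260 CPM against 31.5 and 38.9 CPM, 3.37) and Lamb1 lower (-1.28). Of the caveolar list 6 of 10 were higher, and Cav1 missed the fold threshold (0.93). Of the tip cell and sprouting list 6 of 11 tested members were higher and 1 (Lamb1) lower, next to 9.88% and 9.62% of all genes. Angpt2, Mcam, Nid2 and Unc5b of that list did not pass.

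Of 9 arterial and 5 venous genes tested against perivascular cells, 5 and 4 were higher in endothelial cells and 1 of each was lower, next to 9.88% higher and 9.62% lower of all genes. Nr2f2 had 83.8 and 166 CPM in endothelial cells against 308 and 415 CPM (log2 fold change -1.62, adjusted p = 0.00348), and Gja4 had 75.8 and 79.1 CPM against 206 and 185 CPM (-1.30, adjusted p = 0.00545). In each gene the groups did not overlap. The other tested venous genes, Ephb4 (1.76), Nrp2 (2.59, and 1.73 without the 3 cells with Prox1 and Lyve1), Aplnr and Icam1 (3.21), and the arterial genes Dll4, Efnb2 (2.30), Sox17, Mecom and Igfbp3 (2.53) were higher in endothelial cells. Of 15 growth factor and receptor genes tested against perivascular cells, 8 were higher in endothelial cells and 2 lower. Of 9 Notch pathway genes 3 were higher and 3 lower, and of 11 BMP and TGF-beta genes 5 and 1. The shares of all genes were 9.88% and 9.62%. Notch1, Rbpj and Nrarp did not pass. Some of the signalling genes that passed are given here. Pdgfb (72.8 and 37.6 CPM against 3.50 and 9.73 CPM, 3.19) was higher in endothelial cells. So were Dll4 and Jag2, each with a single perivascular UMI, at ratios of 51.5 (95% counting interval 9.06 to 2053) and 23.9 (4.10 to 962). Notch2 (-2.72) and Hes1 (-1.22) were lower, as was Pdgfa (-2.52). Notch3 had 2.00 and 0 CPM against 249 and 169 CPM and Pdgfrb 11.0 and 0 CPM against 623 and 448 CPM, and as perivascular gate genes they are given without a test.

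The study asked which ovarian cells transcribe the genes of long-lived proteins. It grouped the proteins by mass spectrometry. The 341 genes used here are those of its table of their transcripts in these libraries, a few fewer than the proteins of the group. Of its 332 members tested against all other cells, 32 were higher and 38 lower, with a median log2 fold change of 0.02 against -0.36 over all genes, and without germ cells 18 were higher and 34 lower of 328. All genes tested gave 9.66% higher and 15.1% lower against all other cells and 7.58% and 9.03% without germ cells, so the share higher was near that of all genes in the first fit and below it in the second. Against perivascular cells 8 of 226 were higher and 16 lower, next to 9.88% and 9.62% of all genes tested. The 8 were Dpysl3, Fgd5, Fscn1, Msn, Myh10, Sptan1, Vat1 and Vim.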

How the data were processed

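The authors deposited UMI counts per gene and cell (31057 genes, no normalization) for the barcodes that Cell Ranger called as cells. The submitters' processing notes name Cell Ranger 3.0.2 and GRCm38. The labels name version 2 of the reagent kit, the study's methods a later version. Of the gene symbols, 35 were duplicated, and the first entry was used. Positions come from the GENCODE annotation of GRCm38 and promoters from RefSeq GRCm38.p6.

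Sums of counts per library and cell class were made in python 3.11.15 with scanpy 1.11.5. The quasi-likelihood test of edgeR 4.0.16 (R 4.3.3) was run on them after filterByExpr and TMM scaling, with Benjamini-Hochberg adjustment over all genes tested. A gene was called at an adjusted p under 0.05 and a log2 fold change over 1 in size. The p-values measure the spread between 2 pooled libraries. Gate genes and mitochondrial genes stayed in the fits and in the counts over all genes, and no result is read from them. Doublets were kept, with Scrublet scores (expected share 0.05) used in an alternative. A group at 0 was set at 3 counts over the group, and groups of 1 to 3 counts are given as a ratio with a 95% exact counting interval.

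The members and gene lists were chosen with earlier results of these data known. Leading genes were the 20 called genes of largest fold change over 2-fold in each library and at least 50 CPM in endothelial cells, and the 10 most negative at 100 CPM or more in the other cells without germ cells, with 8 in each direction by the same rules against perivascular cells. A few genes are not reported here.

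Each endothelial sum shares its animals with the other sums of its library, so the replicate number pairs them by design. Deviations of the libraries correlated by 0.108 over 15514 genes between endothelial and other cells and by 0.046 over 4665 genes between endothelial and perivascular cells. In a check on simulated counts in which 200 genes differed, the test against all other cells (15514 genes) recovered 6.5% of log2 changes of 1, 59.5% of 2 and 76.5% of 3, and that against perivascular cells (4665 genes) 18.5%, 92.5% and 98% respectively. A simulated gene counted as recovered at an adjusted p under 0.05 alone, without the fold threshold of the calls. The simulated sums were independent, and all genes of a comparison had a common dispersion, unlike the real sums. Alternatives changed the test (DESeq2 1.42.0, a test against a 2-fold change, the library as a block), scaling, filter, gate, doublets, depth, reference and libraries.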

Additional observations from a re-analysis of the deposited data

Results flagged for a closer look

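In replicate 1, 4 barcodes met the endothelial gate but had fewer than 500 genes or more than 10% mitochondrial UMIs, and they entered no comparison. In replicate 2 there were 0 such barcodes. They are a signal outside the cells analysed. With 2 libraries no group was large enough for a search for outlying samples.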

How the results depend on the processing

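Changes of 2-fold were mostly not called, and the call itself requires a log2 fold change over 1. There were also only 2 libraries, with 393251 endothelial UMIs in replicate 2. A gene that was not called is therefore not shown to be equal. Against all other cells, 1499 genes were higher and 2346 lower. A test against a 2-fold change itself gave 909 and 1162, and thinning every cell to 2000 UMIs gave 435 and 397. Without germ cells in the reference, 1253 genes were lower, of which 920 were among the 2346. Against perivascular cells (461 higher, 449 lower), the counts were 270 and 287 in the test against a 2-fold change, 201 and 190 after thinning, 734 and 766 with no filter on low counts and 281 higher by DESeq2. All other alternatives kept these counts within 1.5 times, as did those that left out the cells in both gates or the 3 cells with Prox1 and Lyve1, which were chosen after seeing the data. A stricter gate, fewer mitochondrial UMIs, doublets left out and thinning kept the share of endothelial cells within its interval in each library.

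The fit with the library as a replicate block gave 1436 higher and 2490 lower genes against all other cells and 492 and 490 against perivascular cells, and all 195 called genes of the lists and named rules kept their call against all other cells. Outside the long-lived list the block added Prox1, Lyve1 and Pdgfrb as higher and Pdpn, Hey1 and Hbb-bt as lower. With 1 library a side there is no test. By fold change alone, leaving out a replicate gave 2169 to 2268 higher and 5468 to 6367 lower genes against all other cells (2101 and 5374 with both), and 652 to 658 higher and 556 to 714 lower against perivascular cells (557 and 525 with both).

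Some genes changed sign. Without germ cells in the reference Gdf9 had a log2 fold change of 0.59 and Ube2c 0.94. Without cells in both gates, which held most of their endothelial UMIs, Kcnj8 fell to -2.38, Ndufa4l2 to -0.70 and Rgs5 to -0.70. With all cells carrying markers of other types left out, Higd1b was at -1.28, Kcnj8 at -1.74 and Rgs5 at -3.00. Ndufa4l2 was then at a fitted -11.26, which is not read as an exact fold. Nts was at 8.31 without replicate 1. Without replicate 2, which held all its endothelial UMIs, the endothelial group was at 0. Its fitted value of -5.34 therefore shows neither a fold nor a sign. After thinning, Smad5 was at -1.14 and Vegfc at a fitted -7.98, and the cause was not tested. Vegfc had 16 and 4 endothelial UMIs before thinning, so its value is not read as an exact fold.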
